A study of Arabidopsis thaliana with 6 samples.

Results

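The genes described here encode cytochromes P450 and UDP-glycosyltransferases of Arabidopsis thaliana, measured in seedlings at 3 temperatures. A gene was taken when a probe set of the array was annotated to it alone and its symbol was CYP plus number, letter and number, or UGT followed by a number. The flavonol rhamnosyltransferase AT1G06000, which carries no UGT symbol, was added. These rules found 70 genes, 22 of them P450s and 48 glycosyltransferases, each with 1 probe set. Of these, 53 had a signal above 13.7 on at least 2 of the 6 arrays and were taken forward, among 22746 probe sets that are not controls. They are 16 P450s, 13 of which belong to the CYP71B subfamily, and 37 glycosyltransferases with AT1G06000 among them. The rule names no difference between temperatures or genotypes, but it was set with earlier results of these data known, and AT1G06000, which it adds by name, had the largest change at 30 °C. P450 and UGT genes whose main symbol is another name, or whose probe set is annotated to several genes or to none, are not counted, and 6 genes with a P450 or UGT name only as a synonym are among those left out.

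Cytochromes P450 are haem enzymes that use molecular oxygen and electrons from NADPH to oxidise small molecules. UDP-glycosyltransferases attach a sugar from a UDP-sugar donor to such molecules, which changes their solubility, activity and storage. In plants both families act in the making of flavonoids, lignin precursors, glucosinolates and other defence compounds, and in the activation or inactivation of hormones. Flavonols, a class of ultraviolet-absorbing and antioxidant flavonoids, are stored in Arabidopsis as glycosides with sugars on the 3 and 7 positions.

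AtrbohB seedlings, which carry a dSpm transposon insertion in AT1G09090, a gene of the NADPH oxidase family, were compared with wild type, both in the Col-0 accession. The series title places the study in the molecular basis of thermotolerance that a respiratory burst mediates. For each genotype, seedlings grown on MS medium under 16 hour days were floated on water at 20, 30 or 40 °C. The length of the treatment and the age of the seedlings are not given in the labels. There were 6 groups with 1 ATH1 array each, namely AtrbohB at 20, 30 and 40 °C and wild type at 20, 30 and 40 °C, and each RNA came from 90 pooled plants. The mutant is 1 insertion line. The annotation names no probe set for AT1G09090, and its transcript was therefore not examined in these seedlings. In its title the AtrbohB array at 40 °C is called a repeat, with no word on what was repeated.

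All arrays had been scaled to the same mean before deposit. The median signal of an array was 38.5 to 44.0. On each array 22.9% to 27.6% of the probe sets did not exceed 13.7, the 25th percentile of the pooled arrays. This value served as a floor, to which lower signals were raised before log2 was taken, and it is not a detection limit. Changes were fitted with limma over 18227 probe sets. Each temperature effect compares 2 arrays with 2, the genotypes standing in for replicates, and the 2 residual degrees of freedom hold the departures from additivity together with array noise. A gene was called at an adjusted p under 0.05. Of 22 listed green shoot markers 5 could be matched to a probe set of their own, all above the floor. Their summed signal was 12778.2, 13067.1 and 17132.4 in AtrbohB at 20, 30 and 40 °C, and 11997.8, 11161.4 and 16729.5 in wild type. At 30 against 20 °C 2 of the 5 were called lower and none higher, and at 40 against 20 °C 3 were called higher and none lower. The 4 root markers with a probe set, of 17 listed, summed to 2764.6, 2237.3 and 861.7 in AtrbohB and to 2657.9, 2096.2 and 928.7 in wild type. AGL42 was at or below the floor on all 6 arrays, and most of the root sum came from the beta-glucosidase PYK10, which fell at 40 against 20 °C (log2 change -1.69). EXPA7 and EXPA18, the other root markers tested, had -0.32 and 0.24 there and were not called. At 40 against 30 °C PYK10 and EXPA7 were called lower (-1.34 and -0.81), and EXPA18 had 0.15, not called. The part of these shifts in the results below was not tested. In whole seedlings, fewer cells of a type and less RNA per cell cannot be told apart.

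At 30 against 20 °C, more of the 53 genes fell than rose. The falls were led by the glycosyltransferases of flavonols, followed by UGT72E1, which acts on lignin precursors. The rises were led by the UGT85A subfamily and UGT76E2. limma called 5 of the 53 genes higher and 21 lower, while 27 did not pass the test. Over all 18227 probe sets 35.6% were called, 14.9% higher and 20.7% lower. Among the 53 genes the shares were 9.43% higher and 39.6% lower, and the difference between these shares and those of all probe sets was not tested. The median log2 change was -0.28 for the 53 genes and -0.07 for all probe sets. Of the called genes, 4 rose and 13 fell at least 2-fold, beside 1310 and 1235 called probe sets of all 18227. Among the P450s 1 rose and 6 fell, and among the glycosyltransferases 4 rose and 15 fell. The count of 21 lower became 9 without AtrbohB at 30 °C and 13 without wild type at 20 or at 30 °C, and the count of 5 higher became 3 without AtrbohB at 20 °C, AtrbohB at 30 °C or wild type at 30 °C. In all, 2 of the 5 rises and 12 of the 21 falls were lost in at least 1 of the 6 fits that left out an array. The genes called in all 6 were UGT85A2, UGT85A4 and UGT76E2 on the higher side. On the lower side they were AT1G06000, UGT78D1, UGT78D2, UGT72E1, UGT72E2, UGT74D1, UGT84A3, UGT87A2 and CYP71B6.

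At 40 against 20 °C, 6 of the 53 genes rose and 14 fell, with 33 not passing the test. Over all probe sets 28.1% were called, 13.5% higher and 14.7% lower. The median log2 change was -0.005 for the 53 genes and 0.08 for all probe sets. At least 2-fold changes among the called genes were 1 rise, that of UGT85A2, and 9 falls. Over all 18227 probe sets such called rises and falls numbered 700 and 1090. Of the P450s 2 rose and 5 fell, and of the glycosyltransferases 4 rose and 9 fell. On median-centred arrays 3 of the 53 genes were called higher and 15 lower. Over all probe sets centring gave 1735 and 2903 calls, in place of 2456 and 2674. The counts higher and lower were 1 and 7 without AtrbohB at 20 °C or without wild type at 20 °C, and 3 and 12 without either 30 °C array. Leaving out the AtrbohB array at 40 °C gave 0 and 3, and leaving out the wild-type array at 40 °C gave 0 and 2. All 6 rises and 12 of the 14 falls were thus lost in at least 1 fit, and the falls of UGT78D2 and UGT87A2 were called in all 6.

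At 40 against 30 °C, 15 of the 53 genes rose, 7 fell and 31 did not pass the test. Over all probe sets 42.7% were called, 24.9% higher and 17.8% lower. The medians were 0.24 for the 53 genes and 0.15 for all probe sets. Centring brought the median of all probe sets to 0.03 and their calls to 3211 higher and 3810 lower, from 4538 and 3243 before centring, while the 53 genes then had 14 higher and 7 lower. Quantile normalization gave 14 higher and 12 lower among the 53 genes. The counts higher and lower were 7 and 4 when AtrbohB at 30 °C was left out, 5 and 3 when AtrbohB at 40 °C was, 9 and 2 without the wild-type array at 40 °C, and 11 and 4 without that at 30 °C. Of the calls, 10 of the 15 rises and 5 of the 7 falls were lost in at least 1 such fit. Those present in all 6 were the rises of AT1G06000, UGT78D1, UGT78D2, UGT72E1 and UGT72E2 and the falls of UGT76E2 and UGT85A4. The comparisons at 30 and at 40 °C share the 20 °C arrays, and the comparison of 40 with 30 °C shares arrays with both, so their values are set side by side below without a measure of overlap.

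**Figure D1:**
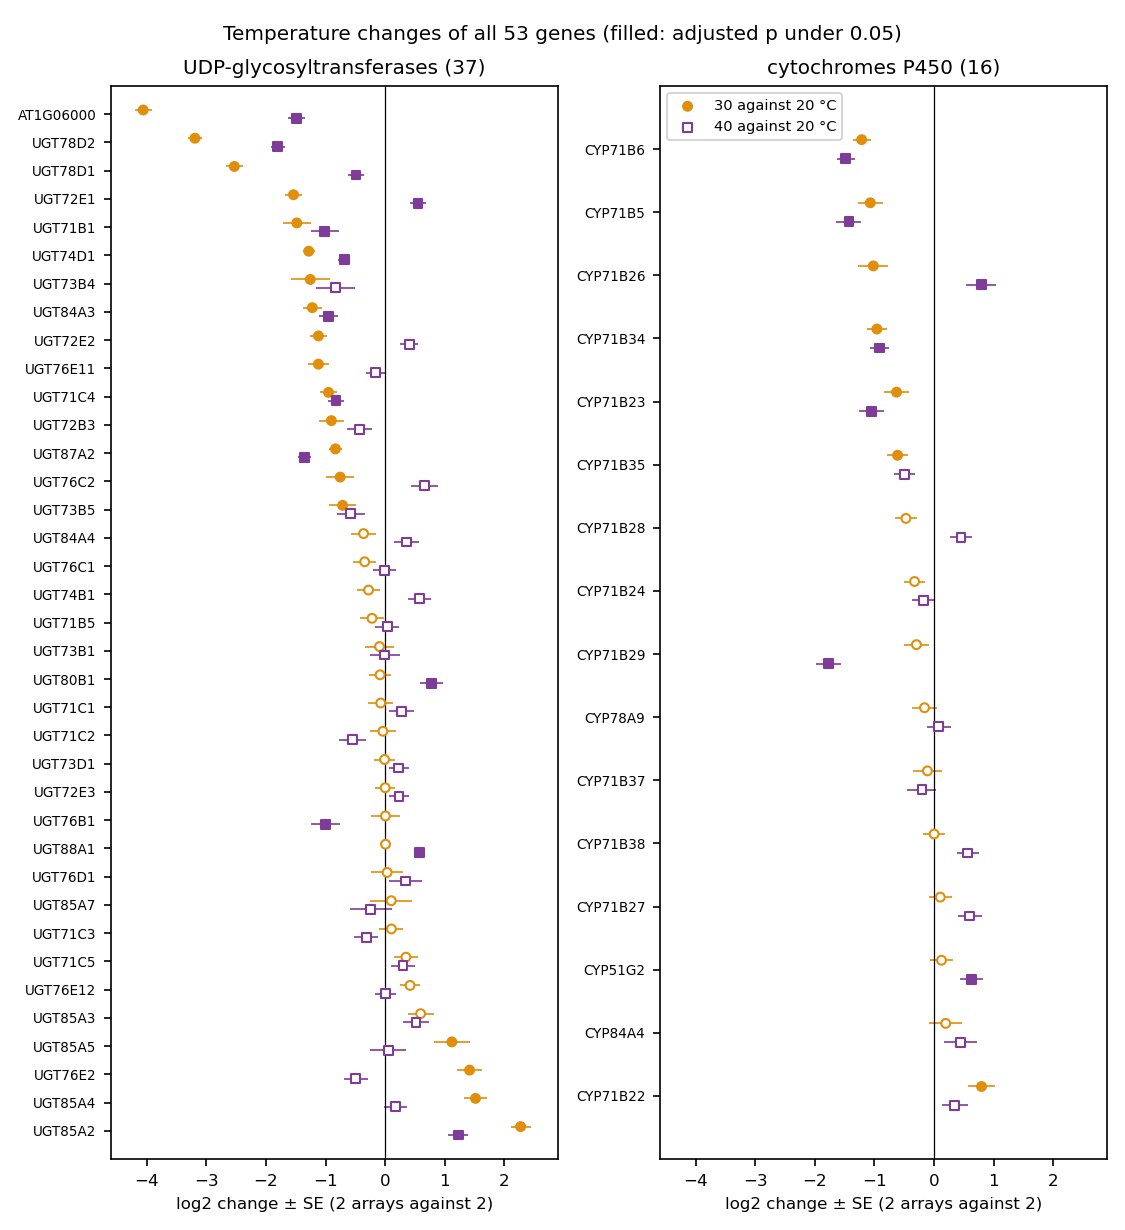
Log2 change of each of the 53 genes at 30 against 20 °C (circles) and at 40 against 20 °C (squares), with the standard error from 2 arrays against 2; filled symbols passed limma's adjusted p under 0.05. The glycosyltransferase panel runs from -4.06 for AT1G06000 to 2.27 for UGT85A2 at 30 °C, and the P450 panel from the limit of -1.77 for CYP71B29 at 40 °C to 0.79 for CYP71B22 at 30 °C.

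The 3 flavonol glycosyltransferases had the largest changes of the 53 genes at 30 against 20 °C. AT1G06000, which adds rhamnose at the 7 position of flavonols, had signals of 533.3, 27.3 and 184.7 in AtrbohB at 20, 30 and 40 °C, and 492.5, 34.6 and 181.1 in wild type. Both 30 °C arrays lay far below the 20 °C arrays in each genotype, and the 40 °C arrays lay between. The log2 change was -4.06 ± 0.145 at 30 against 20 °C, a 16.7-fold fall (limma adjusted p = 1.14e-06), and -1.49 at 40 against 20 °C. Between 40 and 30 °C it rose 5.95-fold (2.57, adjusted p = 6.79e-06). The call at 40 against 20 °C was lost when either 40 °C array was left out, and without that of wild type the adjusted p was 0.0666, the highest of the 6 fits.

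UGT78D2, which places glucose at the 3 position of flavonols and anthocyanidins, had 600.1, 70.6 and 172.7 in AtrbohB and 700.3, 71.3 and 200.5 in wild type. Its signal at 30 °C was 9.14-fold lower than at 20 °C (log2 change -3.19 ± 0.11, adjusted p = 1.14e-06), and at 40 °C it was 3.48-fold lower (-1.80, adjusted p = 2.04e-05). UGT78D1, which places rhamnose at the same position, had 186.2, 32.0 and 138.2 in AtrbohB and 209.0, 36.4 and 142.6 in wild type. It fell 5.78-fold at 30 °C (-2.53 ± 0.14), while its 40 °C signals stood nearer to those at 20 °C (-0.49, adjusted p = 0.0320). That small fall was not called with quantile normalization (adjusted p = 0.0601) or in any of the fits that left out 1 array, whose adjusted p reached 0.226.

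The 3 genes moved alike: each was lowest at 30 °C in both genotypes and each was higher again at 40 than at 30 °C, by 2.57 for AT1G06000, 2.04 for UGT78D1 and 1.39 for UGT78D2. They form, with UGT79B1, the 4 tested genes of the flavonoid list. UGT79B1, a xylosyltransferase of anthocyanins that the annotation lists under another symbol and that is therefore not among the 53, had 22.1, 24.2 and 50.7 in AtrbohB and 26.5, 28.4 and 53.7 in wild type. It had 0.12 at 30 °C and rose by 1.11 at 40 against 20 °C, so the list held 3 falls and no rise at 30 °C, and 3 falls and 1 rise at 40 °C. All 4 rose at 40 against 30 °C.

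Of the flavonoid pathway outside the 2 families, DFR and CHIL were the only listed genes that could be tested. CHIL, a non-catalytic relative of chalcone isomerase that promotes flavonoid formation, had 534.9, 119.5 and 355.4 in AtrbohB and 507.8, 150.7 and 204.3 in wild type. It fell by 1.96 on the log2 scale at 30 °C and by 0.95 at 40 °C, and rose by 1.01 at 40 against 30 °C. DFR, the reductase that leads to anthocyanidins and not to flavonols, had 45.8, 50.2 and 89.8 in AtrbohB and 42.9, 64.6 and 68.2 in wild type. Its change was 0.36 at 30 °C, which did not pass the test, and it rose by 0.82 at 40 against 20 °C.

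The UGT72E enzymes glucosylate the alcohols and aldehydes from which lignin is built. UGT72E1 had 201.0, 76.6 and 347.7 in AtrbohB at 20, 30 and 40 °C, and 218.4, 68.0 and 270.8 in wild type. The 30 °C signals were the lowest and the 40 °C signals the highest in both genotypes. It fell by 1.54 ± 0.14 at 30 against 20 °C (adjusted p = 9.41e-05) and rose 4.25-fold at 40 against 30 °C (2.09, adjusted p = 1.69e-05). Its rise at 40 against 20 °C (0.55, adjusted p = 0.0218) ended on centring and in all 6 fits that left out 1 array, where the change ranged from 0.36 to 0.74 and the adjusted p reached 0.230.

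UGT72E2 followed the same course, with 89.3, 39.7 and 121.0 in AtrbohB and 111.5, 53.1 and 144.1 in wild type. It had -1.12 ± 0.15 at 30 °C (adjusted p = 0.000677) and 1.52 at 40 against 30 °C (adjusted p = 0.000113), and 0.40 at 40 against 20 °C did not pass the test. UGT72E3 was above the floor on the 40 °C arrays alone, at 16.6 in AtrbohB and 15.6 in wild type, and was not called.

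Of the enzymes that form glucose esters of hydroxycinnamic acids, UGT84A3 had 119.6, 54.3 and 61.8 in AtrbohB and 127.1, 51.4 and 65.6 in wild type. It fell by 1.22 ± 0.16 at 30 °C and by 0.95 at 40 °C. Its signals at 30 and at 40 °C thus lay close together, unlike those of UGT72E1 and UGT72E2. Its neighbour UGT84A4 had -0.36 and 0.36, neither called, and rose by 0.72 at 40 against 30 °C. UGT84A4 was called in none of the fits that left out 1 array (adjusted p up to 0.245), and the fall of UGT84A3 at 40 °C was lost in 4 of them (up to 0.0911).

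UGT72B3 fell at 30 °C (-0.90, adjusted p = 0.0107), a call that survived the loss of 1 array only without AtrbohB at 20 °C. The phenylpropanoid list had 8 tested genes: UGT72B1 and 7 of the 53, which are UGT71C1 and the 6 named so far. At 30 against 20 °C 5 of the 8 fell and none rose, at 40 against 20 °C 1 rose and 2 fell, and at 40 against 30 °C 4 rose and none fell. The medians were -1.01, 0.25 and 0.60. UGT72B1, which conjugates monolignols and chlorinated phenols and is annotated under another symbol, had 316.2, 74.7 and 157.2 in AtrbohB and 323.5, 76.9 and 184.5 in wild type. It fell by 2.08 on the log2 scale at 30 °C, and had -0.91 at 40 °C, also called. HCT, the hydroxycinnamoyl transferase on the route to monolignols, was the only other listed enzyme of the pathway with a probe set of its own. HCT had 918.2, 417.9 and 870.9 in AtrbohB and 816.7, 413.2 and 705.4 in wild type, with a fall of 1.06 on the log2 scale at 30 °C and -0.14 at 40 °C.

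**Figure D2:**
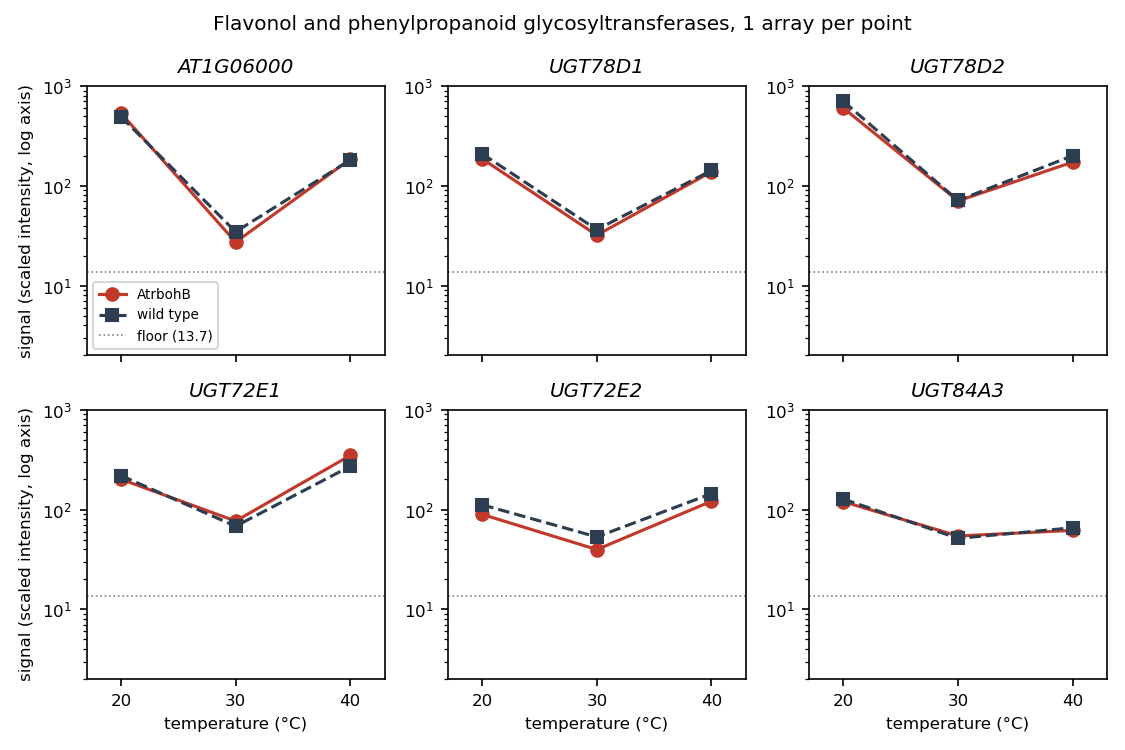
Scaled signal (log axis) of 6 flavonol and phenylpropanoid glycosyltransferases against temperature in °C, with 1 array per point, AtrbohB as circles and wild type as squares; the dotted line is the floor of 13.7. In both genotypes AT1G06000, UGT78D1, UGT78D2, UGT72E1, UGT72E2 and UGT84A3 were lowest at 30 °C, and UGT72E1 and UGT72E2 were highest at 40 °C.

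The UGT85A subfamily moved the other way at 30 °C. Of its 5 genes 3 rose at 30 against 20 °C and none fell, and 3 fell at 40 against 30 °C. The median log2 change was 1.12 at 30 °C, 0.17 at 40 against 20 °C and -1.04 at 40 against 30 °C. UGT85A2 had 72.1, 291.4 and 179.1 in AtrbohB and 64.3, 370.9 and 141.8 in wild type. It rose 4.83-fold at 30 °C (2.27 ± 0.17, adjusted p = 3.57e-05) and 2.34-fold at 40 against 20 °C (1.23, adjusted p = 0.00126), and it fell by 1.04 at 40 against 30 °C. It was the only one of the 53 genes called higher at both temperatures, and both calls at 40 °C were lost without either 40 °C array (adjusted p up to 0.104 against 20 °C and 0.0890 against 30 °C).

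UGT85A4 was below the floor on both 20 °C arrays, at 2.7 in AtrbohB and 8.6 in wild type. Its signals were 41.2 at 30 °C and 15.2 at 40 °C in AtrbohB, and 37.2 and 15.6 in wild type. It was therefore at least 2.86-fold higher at 30 than at 20 °C (adjusted p = 0.000520), and it fell by 1.35 at 40 against 30 °C, a call that ended where neither floor nor filter was used (adjusted p = 0.183).

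UGT85A5, which has been linked to salt tolerance in transgenic tobacco, had 24.0, 79.4 and 35.9 in AtrbohB and 37.5, 53.4 and 26.9 in wild type. The 30 °C array was the highest in each genotype, by a wider margin in AtrbohB. It had 1.12 ± 0.30 at 30 °C (adjusted p = 0.0219) and -1.07 at 40 against 30 °C, the least certain of the 3 rises: only 1 of the 6 fits that left out an array called it, the one without wild type at 20 °C, and the change ranged from 0.55 to 1.69. Its fall was lost without any one of the 30 or 40 °C arrays (adjusted p up to 0.306). UGT85A3 had 0.59 at 30 °C (adjusted p = 0.0687) and UGT85A7 0.10, and neither was called in any temperature comparison.

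UGT76E2 had 19.6, 48.0 and 9.5 in AtrbohB and 24.7, 71.7 and 17.8 in wild type, with the 30 °C array highest and the 40 °C array lowest in both. It rose 2.67-fold at 30 °C (1.41 ± 0.20, adjusted p = 0.00105). It fell by 1.91 at 40 against 30 °C (adjusted p = 0.000183). The AtrbohB signal at 40 °C was below the floor, so the size of that fall rests in part on the floor. Where all 6 arrays had to exceed the floor, UGT76E2 could not be tested. UGT76E11 ran opposite to it, with 94.3, 40.5 and 78.5 in AtrbohB and 81.6, 40.2 and 78.8 in wild type, a fall of 1.12 at 30 °C and a rise of 0.96 at 40 against 30 °C. The fall was lost without AtrbohB at 30 °C (adjusted p = 0.0536), and the rise without AtrbohB at 30 °C or either 40 °C array (up to 0.0714). UGT76E12 was above the floor at 30 °C alone, at 18.7 in AtrbohB and 17.9 in wild type, and was not called.

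**Figure D3:**
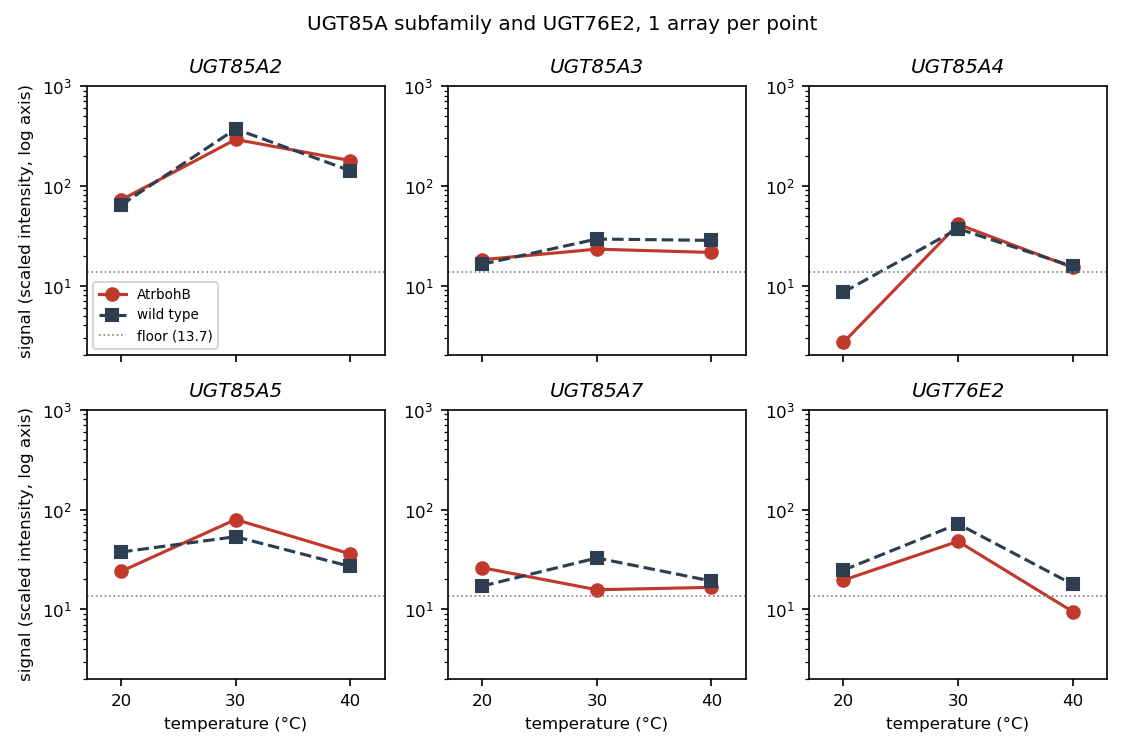
Scaled signal (log axis) of the 5 UGT85A genes and UGT76E2 against temperature in °C, with 1 array per point, AtrbohB as circles and wild type as squares; the dotted line is the floor of 13.7. UGT85A2, UGT85A4, UGT85A5 and UGT76E2 were highest at 30 °C in both genotypes, while UGT85A7 was lowest at 30 °C in AtrbohB (15.7) and highest there in wild type (32.7).

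Glycosyltransferases that act on hormones changed one by one. UGT74D1, which glucosylates auxins, had 483.8, 188.2 and 301.5 in AtrbohB and 498.5, 216.8 and 308.8 in wild type. The genotypes lay close together at each temperature and the 30 °C signals were the lowest. It fell by 1.28 ± 0.10 at 30 °C (adjusted p = 5.00e-05) and by 0.69 at 40 °C, and the second of these falls was lost without any one of AtrbohB at 20 °C, AtrbohB at 40 °C and wild type at 40 °C (adjusted p up to 0.0801).

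UGT76C1 and UGT76C2 attach glucose to the ring nitrogen of cytokinins and lie next to each other. UGT76C2 had 37.3, 23.4 and 75.5 in AtrbohB and 59.7, 33.4 and 73.6 in wild type. It fell by 0.75 at 30 °C, a call lost in all 6 fits that left out 1 array (adjusted p up to 0.290), and rose by 1.41 at 40 against 30 °C, a call lost without AtrbohB at 40 °C or either 30 °C array (up to 0.0734). UGT76C1 had -0.34 at 30 °C, -0.02 at 40 °C and 0.33 at 40 against 30 °C, none of them called. In the list of auxin, cytokinin and strigolactone enzymes, whose 3 tested genes are these, 2 fell at 30 °C and 1 at 40 °C. UGT71C5, which inactivates abscisic acid, had 0.35 and 0.30 and was not called.

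The list of salicylate and related defence enzymes had 3 tested genes, UGT76B1, UGT71C3 and UGT73D1, of which none was called at 30 °C and 1 fell at 40 °C. UGT76B1, which glucosylates isoleucic acid and salicylic acid, had 58.9, 55.1 and 36.6 in AtrbohB and 64.3, 69.1 and 25.8 in wild type. It had 0.004 at 30 °C and fell by 1.00 at 40 °C (adjusted p = 0.0169), although no fit that left out 1 array called it and the adjusted p then reached 0.189. Its fall at 40 against 30 °C (-1.01) was lost without wild type at 40 °C or either 30 °C array (up to 0.156). UGT71C3, which glucosylates methyl salicylate, had 0.10 at 30 °C and -0.31 at 40 °C, and UGT73D1 had -0.01 and 0.23. Outside the list, UGT76D1, which acts on dihydroxybenzoic acids, had 0.03 and 0.34, and none of these values was called.

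UGT74B1, which makes desulphoglucosinolates, had 244.0, 156.9 and 383.1 in AtrbohB and 263.0, 277.8 and 372.0 in wild type. The 40 °C signal was the highest in each genotype, whereas the 30 °C signal was below that at 20 °C in AtrbohB only. It was called higher at 40 against 30 °C alone (0.85, adjusted p = 0.00784), and this was lost without AtrbohB at 30 °C, AtrbohB at 40 °C or wild type at 40 °C (adjusted p up to 0.227). Of 4 tested partners in glucosinolate synthesis and transport, BCAT4, an aminotransferase of methionine chain elongation, rose by 1.76 at 40 against 20 °C, as did GSTU20, a glutathione transferase linked to this pathway (1.70), which fell by 0.76 at 30 °C. GTR2, a glucosinolate transporter, fell by 0.78 at 30 °C and by 1.94 at 40 °C, while GTR1, a transporter of the same substrates, had -0.34 and -0.56 and was not called.

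No P450 or UGT of the gibberellin and jasmonate lists could be tested, but some of their partners could. Of the gibberellin receptors GID1B rose by 1.83 on the log2 scale at 30 °C (adjusted p = 0.000614). GID1A rose by 0.47 (adjusted p = 0.0393), while GID1C had 0.67 and was not called. OPCL1, a ligase of jasmonate synthesis, rose by 2.56 at 30 °C and by 2.29 at 40 against 20 °C.

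Some glycosyltransferases of other or unassigned substrates were called as well. UGT87A2, which affects flowering time, had 270.9, 155.6 and 105.2 in AtrbohB and 283.8, 155.4 and 112.7 in wild type. Its signal was lower at each higher temperature in both genotypes, with -0.83 ± 0.11 at 30 °C, -1.35 ± 0.11 at 40 against 20 °C (adjusted p = 8.21e-05) and -0.51 at 40 against 30 °C, the last lost without any one of the 30 or 40 °C arrays (adjusted p up to 0.0895). It was the only one of the 53 genes called lower in all 3 comparisons.

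UGT88A1 had 540.5, 533.0 and 830.3 in AtrbohB and 520.5, 532.0 and 755.6 in wild type. It had 0.01 at 30 °C and rose by 0.58 ± 0.10 at 40 against 20 °C (adjusted p = 0.00316). UGT80B1, a sterol glucosyltransferase whose mutant has pale seeds, had 39.3, 37.3 and 64.9 in AtrbohB and 38.6, 36.1 and 68.4 in wild type, and rose by 0.78 ± 0.19 (adjusted p = 0.0190). Both genes were nearly level at 20 and 30 °C and higher at 40 °C. UGT80A2, the other sterol glucosyltransferase, is annotated under another symbol and had 0.23 and 0.48, not called. Without 1 array, the rise of UGT80B1 was called in none of 6 fits (adjusted p up to 0.172) and that of UGT88A1 in those without a 30 °C array (up to 0.0831). At 40 against 30 °C they rose by 0.86 and 0.57, calls lost without any one of the 30 or 40 °C arrays for UGT80B1 (up to 0.103) and without AtrbohB at 40 °C for UGT88A1 (0.0566).

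Of 7 tested UGT71 genes 2 were called lower at 30 °C and 2 at 40 against 20 °C, and of 4 UGT73 genes 2 at 30 °C alone, with no gene of either family called higher. UGT71B1 had 115.8, 32.9 and 62.7 in AtrbohB and 127.9, 57.6 and 57.8 in wild type, with -1.48 ± 0.23 at 30 °C and -1.01 at 40 °C. UGT71C4 had 359.6, 179.5 and 235.4 in AtrbohB and 409.7, 219.7 and 199.5 in wild type, with -0.95 and -0.83. The falls of both at 30 °C were lost without AtrbohB at 30 °C (adjusted p = 0.0528 for UGT71B1 and 0.0815 for UGT71C4), and those at 40 °C in 4 and 3 of the 6 such fits. UGT71B5, UGT71C1 and UGT71C2 were called in no temperature comparison.

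UGT73B4 and UGT73B5, adjacent genes induced by pathogens and xenobiotics, fell at 30 °C by 1.26 (adjusted p = 0.0175) and 0.71 (0.0443). UGT73B4 had 27.8, 14.6 and 26.1 in AtrbohB and 41.1, 8.2 and 11.1 in wild type. In wild type at 30 °C both genes were below the floor, UGT73B5 at 13.1, so the sizes of their falls rest in part on the floor. Both calls were lost with neither floor nor filter, and neither gene could be tested where all 6 arrays had to exceed the floor. The call of UGT73B5 was lost with quantile normalization and with centring, and of the 6 fits without an array only that without AtrbohB at 20 °C made it (adjusted p up to 0.337). The call of UGT73B4 was lost without wild type at 20 °C or either 30 °C array (adjusted p up to 0.231), and UGT73B1 was called in no temperature comparison. Of 9 tested genes of the list for xenobiotic and stress related members, 1 rose and 5 fell at 30 °C, 2 fell at 40 °C, and the medians were -0.71 and -0.49. The glutathione transferases GSTU22 and GSTU25, of the same kind of response, fell at 30 °C as well (-1.68 and -1.85) and rose at 40 against 30 °C (1.59 and 2.23). AT2G21640, the third tested partner in this list, had -0.28 at 30 °C and was called in no temperature comparison.

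Among the P450s, CYP71B6, which oxidises indole-3-acetonitrile, had the largest change at 30 °C. It had 210.8, 107.4 and 85.8 in AtrbohB and 249.3, 90.8 and 78.4 in wild type, so that both higher temperatures lay below 20 °C. It fell by 1.21 ± 0.15 at 30 °C (adjusted p = 0.000504) and by 1.48 at 40 °C (adjusted p = 0.000259). CYP71B5 had 65.1, 28.4 and 21.4 in AtrbohB and 55.2, 28.7 and 23.2 in wild type, with -1.07 and -1.43, and CYP71B34 had -0.96 and -0.91. The calls at 40 °C of CYP71B6 and CYP71B5 were lost when either 40 °C array was left out (adjusted p up to 0.0690 and 0.0887), and that of CYP71B34 was lost without any one of the 20 or 40 °C arrays (up to 0.107). At 30 °C, CYP71B5 was lost without AtrbohB at 20 °C or either 30 °C array (up to 0.0846), and CYP71B34 without wild type at 20 °C or either 30 °C array (up to 0.0723).

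CYP71B29 differed between the 2 higher temperatures. At 40 against 30 °C it was called lower, with a limit of -1.48 (limma adjusted p = 0.00094). CYP71B29 lost that call without either 40 °C array, and could not be tested where all 6 arrays had to exceed the floor. It had 44.4, 42.3 and 7.5 in AtrbohB and 49.4, 34.4 and 11.0 in wild type, and both 40 °C signals were below the floor. It had -0.30 at 30 °C, not called, and was at least 3.42-fold lower at 40 than at 20 °C (adjusted p = 0.000657), a call lost without AtrbohB at 40 °C or wild type at 40 °C (up to 0.0728).

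CYP71B26 was lowest at 30 °C and highest at 40 °C, with 33.9, 22.6 and 71.0 in AtrbohB and 40.6, 14.8 and 58.3 in wild type. It had -1.02 ± 0.25 at 30 °C, 0.79 at 40 against 20 °C (adjusted p = 0.0486) and 1.81 at 40 against 30 °C (adjusted p = 0.000741), the last lost without either 40 °C array (up to 0.0754). The rise over 20 °C was called in none of the fits that left out 1 array, where it ranged from 0.44 to 1.15, and was lost on centring. The fall at 30 °C was called only without AtrbohB at 20 °C among those fits (adjusted p up to 0.178).

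Of the other CYP71B genes, CYP71B22 rose at 30 °C (0.79, adjusted p = 0.0248), with 6.8, 24.7 and 21.4 in AtrbohB and 23.6, 39.4 and 24.5 in wild type. CYP71B23 fell at 30 °C (-0.63, adjusted p = 0.0469) and was at least 2.08-fold lower at 40 °C, where both arrays were below the floor. The second call was lost without floor and filter, without wild type at 20 °C and without either 40 °C array (adjusted p up to 0.125). CYP71B35 was below the floor on both 30 °C arrays and was called lower there, by at least 1.53-fold. CYP71B28 rose by 0.92 at 40 against 30 °C, and CYP71B38, above the floor at 40 °C only, had at least 0.57 in that comparison (adjusted p = 0.0404). CYP71B38 passed the filter only through its 40 °C arrays, so this call follows in part from the filter. It was lost with quantile normalization, with centring, without floor and filter, and in 5 of the 6 fits that left out an array (adjusted p up to 0.207). CYP71B28 lost its call without AtrbohB at 30 °C or either 40 °C array (adjusted p up to 0.0930). CYP71B24 and CYP71B37 were called in no comparison. In all, 1 of 13 CYP71B genes rose and 6 fell at 30 °C, 1 rose and 5 fell at 40 °C, and 3 rose and 1 fell at 40 against 30 °C. Most of the calls on low signals did not last without an array: that of CYP71B23 at 30 °C was lost in all 6 fits (adjusted p up to 0.287), and those of CYP71B22 and CYP71B35 in 4 (up to 0.212 and 0.143).

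CYP51G2 and CYP71B27 are annotated as transcribed pseudogenes. CYP51G2, a relative of the sterol demethylase CYP51, had 13.0, 6.0 and 20.2 in AtrbohB and 15.4, 18.3 and 24.9 in wild type and was called higher at 40 °C (0.63, adjusted p = 0.0378), a call lost on quantile normalization, on centring and in all 6 fits without 1 array. CYP71B27 had 0.60 (adjusted p = 0.0522). CYP78A9, which affects organ growth, and CYP84A4, which takes part in making arabidopyrones, were not called and had changes between -0.16 and 0.44 against 20 °C.

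Several of the genes are neighbours in the RefSeq annotation TAIR10.1, where 26 of the 53 form 16 pairs with at most 2 protein-coding genes between them. Only protein-coding genes were placed in this order, so the pseudogenes CYP51G2 and CYP71B27 could form no pair. Their values are set side by side here, and differences between neighbours were not tested. UGT85A7, UGT85A2, UGT85A5 and UGT85A3 lie in this order with no protein-coding gene between them, and had 0.10, 2.27, 1.12 and 0.59 at 30 °C. In the run UGT71C5, UGT71C4 and UGT71C3 the middle gene was called lower (-0.95), beside 0.35 and 0.10 for its neighbours. CYP71B28 had 0.45 at 40 against 20 °C, and CYP71B29 next to it the limit of -1.77. CYP71B26 had 0.79 at 40 °C, and its neighbour CYP71B34 -0.91. Probes of close relatives can share target sequence, and cross-hybridisation among these paralogues was not tested.

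Between the genotypes none of the 53 genes passed the test, as was the case for all 18227 probe sets (percent called 0.0). At an unadjusted p under 0.05, 4 of the 53 genes and 735 probe sets, 4.03%, differed. These 4 were UGT71C1, CYP71B22, UGT72E2 and UGT76E2, all lower in AtrbohB at each of the 3 temperatures. UGT71C1 had 26.4, 21.8 and 30.2 in AtrbohB at 20, 30 and 40 °C, and 34.8, 38.0 and 44.3 in wild type. The differences were -0.40, -0.80 and -0.55, and the fitted value was -0.58 ± 0.17 (limma adjusted p = 0.978). The fitted values of CYP71B22, UGT76E2 and UGT72E2 were -0.55, -0.43 and -0.33, with the same adjusted p. In CYP71B22 the AtrbohB signal at 20 °C was below the floor.

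Of the 53 genes, 8 were lower and 3 higher in AtrbohB at all 3 temperatures, beside 11.4% and 10.2% of all probe sets. The 3 were UGT71C3 (0.33), UGT71B5 (0.26) and UGT88A1 (0.06). UGT71B5 was below the floor in wild type at 20 and 30 °C, and its values there are limits. CYP51G2 had -0.30, with AtrbohB at the floor at 20 and 30 °C. On single arrays, UGT85A7 at 30 °C was the only one of the 53 genes with at least a 2-fold difference between genotypes at any temperature. At this temperature 0.143% of all probe sets reached 2-fold upward in AtrbohB and 0.499% downward. The same shares were 0.39% and 0.236% at 20 °C and 0.461% and 1.09% at 40 °C.

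The responses to temperature ran close together in AtrbohB and wild type. Over the 53 genes their Pearson correlation was 0.888 at 30 and 0.824 at 40 against 20 °C, beside 0.871 and 0.829 over all probe sets. These are descriptions, since genes are not independent and each response rests on 2 arrays. The median absolute difference between the genotypes' responses was 0.25 at 30 °C and 0.23 at 40 °C, beside 0.24 at each over all probe sets.

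The flavonol genes fell in each genotype on its own. At 30 against 20 °C AT1G06000 had -4.29 in AtrbohB and -3.83 in wild type, and at 40 against 20 °C it had -1.53 and -1.44. At least 2-fold changes at 30 against 20 °C were 4 rises and 11 falls in AtrbohB, and 3 rises and 14 falls in wild type. Over all probe sets such rises and falls were 7.51% and 8.26% in AtrbohB and 7.71% and 6.76% in wild type. At 40 against 20 °C there were 3 rises and 6 falls in AtrbohB, and 1 rise and 12 falls in wild type, where all probe sets had 4.24% and 6.12% in AtrbohB and 5.46% and 6.58% in wild type. At 40 against 30 °C the rises and falls numbered 9 and 4 in AtrbohB and 7 and 5 in wild type, beside 10.3% and 9.12% of all probe sets in AtrbohB and 7.58% and 8.55% in wild type.

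The sizes of the response differences are given without a test, since each group has 1 array. Among the 29 genes that reached 4 times the floor on some array, UGT85A5 rose more in AtrbohB at 30 °C (1.73) than in wild type (0.51), a difference of 1.22, and at 40 °C it had 0.58 in AtrbohB and -0.48 in wild type. CYP71B26 had -0.58 in AtrbohB and -1.46 in wild type at 30 °C. UGT71C5 had 0.74 in AtrbohB and -0.04 in wild type, and UGT72B3 had -0.63 and -1.17. In the opposite direction UGT74B1 had -0.64 in AtrbohB and 0.08 in wild type at 30 °C, a difference of -0.72, UGT71B1 had -1.81 and -1.15, and UGT85A2 had 2.02 and 2.53.

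At 40 °C UGT73B1 had 0.53 in AtrbohB and -0.54 in wild type, UGT76C2 had 1.02 and 0.30, and UGT76B1 had -0.69 and -1.32. Among the same 29 genes the most negative differences at 40 °C were -0.35 for CYP71B5 and -0.21 for UGT76E11. Genes of lower signal had more negative ones, down to -1.05 for UGT76D1. UGT73B4, which is not among the 29 and was singled out after its values were seen, had a difference of 1.49 at 40 °C, with -0.09 in AtrbohB and -1.58 in wild type, where the 40 °C array was below the floor.

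**Figure D4:**
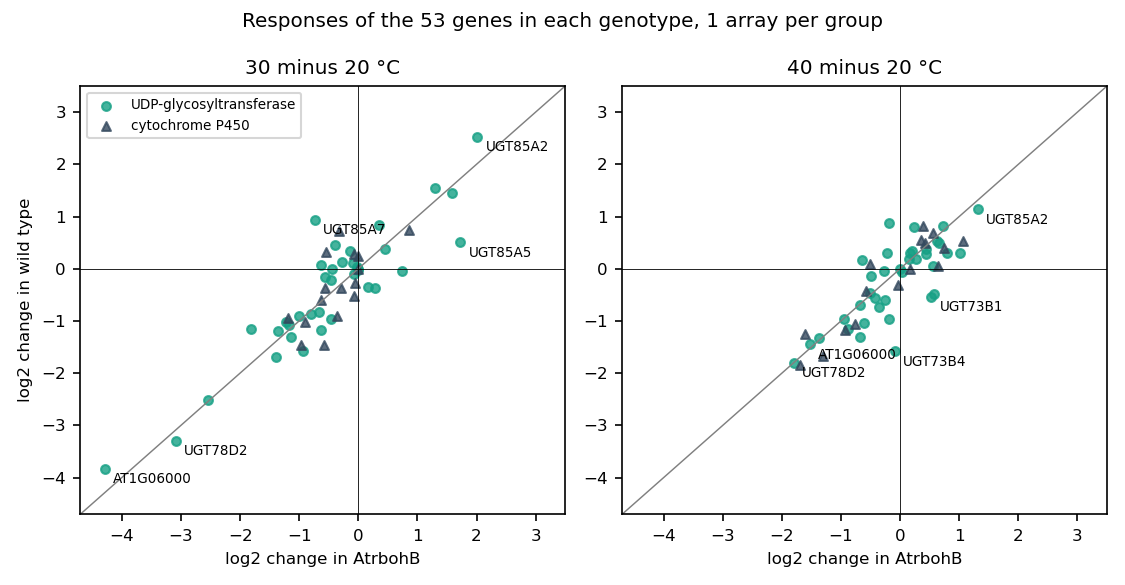
Log2 change of each of the 53 genes in AtrbohB (x axis) against that in wild type (y axis), at 30 minus 20 °C on the left and 40 minus 20 °C on the right, with 1 array per group; circles are glycosyltransferases, triangles P450s, and the diagonal marks equal responses. Most genes lie near the diagonal (Pearson correlations 0.888 and 0.824), and UGT85A7 at 30 °C and UGT73B1 and UGT73B4 at 40 °C are among those off it.

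The remaining 17 of the 70 genes, 6 P450s and 11 glycosyltransferases, were not taken forward. Of these, 14 were at or below the floor on all 6 arrays. UGT73C1 reached 14.9 in AtrbohB at 20 °C, UGT73C7 16.3 in wild type at 40 °C and UGT84A1 16.4 in wild type at 20 °C, each above the floor on 1 array. Just inside the rule, CYP71B38, UGT72E3 and UGT76E12 were above the floor on 2 arrays. Of the 53 genes, 37 were above the floor on all 6 arrays, and among these 2 were called higher and 17 lower at 30 against 20 °C, where 15.9% and 22.9% of all 14871 such probe sets were. The comparison of 40 with 20 °C had 5 higher and 12 lower among the 37, beside 13.8% and 16.1% of such probe sets. That of 40 with 30 °C had 14 and 4, beside 26.5% and 19.3%.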

How the data were processed

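Signals came from the deposited table of the 6 ATH1 arrays, 1 intensity per probe set on a linear scale. How the authors computed that intensity, with which software and against which genome build, is not given in the sources used here. Leaving out the top and bottom 2% of values, every array averaged 100. Of 22810 probe sets, 64 controls were removed. The platform annotation gives 1 gene for 13513 of the rest, several for 503 and none for 8730. For names, 13436 were matched to RefSeq TAIR10.1 and 77 were not.

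Values were raised to the floor of 13.7, put on the log2 scale and kept where at least 2 arrays exceeded it. limma 3.58.1 in R 4.3.3 fitted temperature and genotype as additive terms, with eBayes and trend (6.08 prior degrees of freedom), two-sided tests and Benjamini-Hochberg adjustment over 18227 probe sets. Where both arrays of a temperature lie at the floor, a fold is given as a lower bound. The fit was tested on simulated data in which no signal was raised to the floor, so that test does not cover signals at it. The number of arrays limits precision. Each group holds a single array of a single pool, so the spread between pools of the same group could not be estimated on its own. The p-values and the standard errors, given after ±, rest on the departures from additivity together with array noise, which eBayes combined with the prior.

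The genes and lists were chosen with earlier results of these data known. Named by rule were up to 8 called genes each way per temperature comparison, ranked by size, 5 each way with 1 sign between genotypes, the 4 greatest response differences each way among genes that reached 4 times the floor, and tested list members. The remaining genes are named so that each is accounted for. The alternatives were quantile normalization; median centring; a higher floor, at the 40th percentile (27.9); neither floor nor filter; a pseudocount of 16 on the log2 scale; a filter requiring all 6 arrays; eBayes with a robust prior, or without trend; and refits lacking 1 array. No sequences are shown.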

Additional observations from a re-analysis of the deposited data

Results flagged for a closer look

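UGT85A7 responded in opposite directions in the genotypes at 30 against 20 °C. It had 26.1 at 20 °C and 15.7 at 30 °C in AtrbohB, a log2 change of -0.73, and 17.1 and 32.7 in wild type, a change of 0.94. The response in AtrbohB minus that in wild type was -1.67. UGT73B1 moved in opposite directions at 40 against 20 °C, with 54.8 and 79.0 in AtrbohB (0.53) and 85.9 and 59.2 in wild type (-0.54), a difference of 1.06. Both differences rest on 1 array per group and were not tested.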

How the results depend on the processing

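The counts of called genes stayed within 1.5 times of the reported ones under most alternatives. The exceptions were 2 higher at 30 against 20 °C (reported 5) with the filter on all 6 arrays, 3 higher at 40 against 20 °C (reported 6) with centring and also with no floor and no filter, and 12 lower with quantile normalization and 4 lower with the filter on all 6 arrays at 40 against 30 °C (reported 7). The filter on all 6 arrays tests fewer genes, and the cause of the other shifts was not tested. Leaving out 1 array at a time gave 3 to 4 higher and 9 to 17 lower at 30 against 20 °C, 0 to 3 and 2 to 12 at 40 against 20 °C, and 5 to 13 and 2 to 7 at 40 against 30 °C, on 1 residual degree of freedom. In AtrbohB against wild type the count was 0 under every alternative run. No value changed sign. Each gene had 1 probe set, so averaging probe sets changed nothing. No paired analysis was possible because each group has 1 array and so no replicate number to pair on, while genotype was already a term of the fit. Signals near the floor limit what can be seen for the 16 genes with an array at it.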
